A study of Homo sapiens with 6 samples.

Results

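The genes described here are 10 genes of iron uptake, storage and regulation, chosen by name for their known roles: TFRC, STEAP3 and SLC11A2 for uptake, FTH1, FTL and NCOA4 for storage, SLC40A1 for export, IREB2 and ACO1 for regulation, and HMOX1 for the release of iron from heme. Of 52989 human genes with a transcript matched by identifier, 11908 had a mean estimated count of at least 50 over the 6 libraries, and 9 of the 10 iron genes were among them. NCOA4, the receptor that carries ferritin to the lysosome, is not analysed here, since 0 of its 7 annotated transcripts matched by identifier. All libraries came from J82, an established cell line of human bladder cancer, with a tetracycline-system construct for ZFP36L1 (called tet-ZFP36L1) or with a control one (called tet-control). RNA was sequenced from tet-ZFP36L1 cells without doxycycline (0 h) and after 6 and 24 h of doxycycline at 1 µg/mL, and from tet-control cells at the same 3 times. Both lines carry the tetracycline system and both received the drug, and the sources used here do not say whether each line is a clone or a pool. Each of the 6 groups is 1 library, so no spread between cultures is known, no test between groups was run, and the intervals given are 95% intervals of counting error only.

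Cells take up iron mostly as transferrin bound to the transferrin receptor, the product of TFRC. In the endosome the metal is reduced by STEAP3 and moved into the cytosol by SLC11A2, ferritin made of the heavy chain FTH1 and the light chain FTL stores what is not used, and SLC40A1 (ferroportin) exports it. The iron regulatory proteins, encoded by ACO1 and IREB2, bind stem-loops called iron-responsive elements when iron is scarce: in a 3' UTR, as in TFRC, binding protects the mRNA from decay, and in a 5' UTR, as in the ferritins and ferroportin, it blocks translation. ZFP36L1 belongs to the ZFP36 family, whose members bind AU-rich elements in 3' UTRs and promote decay of the mRNA, and ZFP36 itself is known to act on TFRC mRNA.

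The sequences by which both kinds of protein can recognise these mRNAs are shown first, since the report turns on how the mRNAs that carry them behaved. An iron-responsive element was searched as a C, any 5 bases, CAGTG and any base, with at least 4 of 5 possible base pairs in the upper stem, G-T pairs included, on the transcript strand, in UTRs of GENCODE 29 (GRCh38). Capitals mark the bulged C and the loop CAGTGN. The first 4 lines are from the TFRC 3' UTR, named by the base of that UTR at which the match starts, and the others are 1 match from each of 4 further iron genes.
TFRC 3' UTR, base 941: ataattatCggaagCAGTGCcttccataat
TFRC 3' UTR, base 1345: cacattatCgggagCAGTGTcttccataat
TFRC 3' UTR, base 1410: gtctgtatCggagaCAGTGAtctccatatg
TFRC 3' UTR, base 1457: gtaattatCgggaaCAGTGTttcccataat
FTH1 5' UTR: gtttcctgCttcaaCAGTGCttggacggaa
FTL 5' UTR: gtctcttgCttcaaCAGTGTttggacggaa
SLC40A1 5' UTR: tccaacttCagctaCAGTGTtagctaagtt
SLC11A2 3' UTR, base 34: gtagccatCagagcCAGTGTgtttctatgg
The TFRC windows lie on the minus strand at chr3:196050980-196051009, chr3:196050576-196050605, chr3:196050511-196050540 and chr3:196050464-196050493. The others lie at chr11:61967575-61967604 (minus) for FTH1, chr19:48965333-48965362 (plus) for FTL, chr2:189580662-189580691 (minus) for SLC40A1 and chr12:50988270-50988299 (minus) for SLC11A2. All but the SLC11A2 window, with 4 of 5, had 5 of 5 upper-stem pairs. Over the principal transcripts of 10898 measured coding genes (3' UTRs under 50 bases left out), such a match was present in 3.94% of 3' UTRs and 0.61% of 5' UTRs, and TFRC was the 1 gene with 4 or more in its 3' UTR. IREB2 also had 1 match in its 3' UTR, with 4 of 5 pairs, while the principal transcripts of ACO1, HMOX1 and STEAP3 had 0.

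The AU-rich motif TATTTAT, which contains ATTTA, was searched on the transcript strand as well. The TFRC 3' UTR of 2658 bases (transcript TFRC-201) held 2 copies, close together and upstream of the 4 pattern matches shown above. That pattern misses any iron-responsive element with another loop, and such elements were not searched for, so the copies may not lie upstream of every element. Each copy is shown with the motif in capitals, at the base where it starts.
TFRC 3' UTR, base 873: tggcactgagaTATTTATtgtttatttat
TFRC 3' UTR, base 884: tatttattgttTATTTATcagtgacagag
These windows overlap, at chr3:196051052-196051080 and chr3:196051041-196051069 on the minus strand. TATTTAT was present in 29.06% of all measured 3' UTRs and in 53.67% of the 1280 of like length, so carrying it does not set TFRC apart. The same 3' UTR held 12 ATTTA, a number reached by 11.41% of 3' UTRs of like length. SLC11A2-202 had 3 TATTTAT and IREB2-201 had 1, whereas the principal transcripts of FTH1, FTL, SLC40A1, ACO1, HMOX1 and STEAP3 had 0. A match is a description of letters, and no binding was measured.

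In levels per length, FTH1 was the highest of the iron genes at 1734 to 2925 TPM over the 6 libraries (median 2288), followed by FTL at 783 to 1430 TPM (median 1324). HMOX1 spanned 70.1 to 427 TPM and TFRC 40.6 to 139 TPM, and these ranges overlap. ACO1 followed with a median of 51.2 TPM, SLC11A2 with 30.7 and IREB2 with 23.2, where neighbours overlap again. STEAP3 (median 3.25 TPM) and SLC40A1 (median 3.02 TPM) were the lowest and overlapped. The ranges of FTH1 and FTL overlapped neither each other nor those of the other genes.

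**Figure D1:**
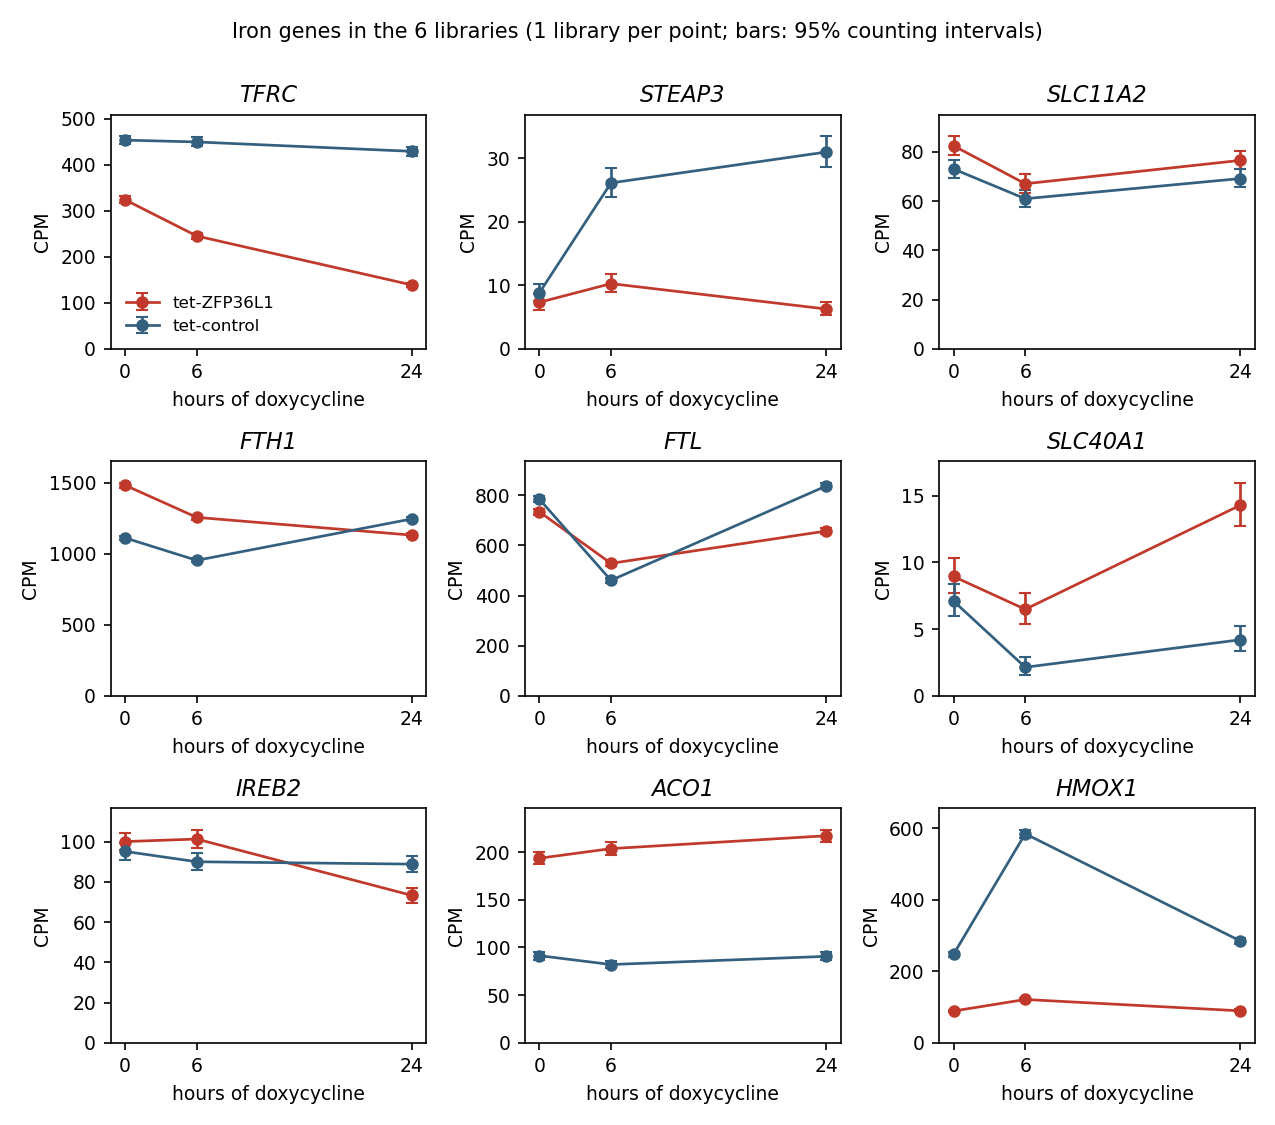
Each panel plots 1 iron gene, with hours of doxycycline on the horizontal axis and CPM (TMM-scaled counts per 1000000) from 0 on the vertical axis, 1 library per point, and bars for 95% counting intervals. At 24 h TFRC is at 138.7 CPM in tet-ZFP36L1 and at 428.9 CPM in tet-control, where HMOX1 peaks at 6 h and STEAP3 is higher at both later times than at 0 h, and ACO1 is higher in tet-ZFP36L1 at each time.

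TFRC (ENSG00000072274, chr3:196027183-196082189, minus strand) had the clearest course in the induced line. It stood at 323.8, 245.1 and 138.7 CPM in tet-ZFP36L1 at 0, 6 and 24 h, against 453.3, 449.3 and 428.9 CPM in tet-control, from 3031 to 9131 estimated counts per library. CPM are counts per 1000000 counts after TMM scaling. All 3 tet-ZFP36L1 values lay below all 3 tet-control values, and each later tet-ZFP36L1 value lay below the one before it. On the log2(CPM + 0.5) scale tet-ZFP36L1 changed from 0 h by -0.40 at 6 h and by -1.22 at 24 h (2.33-fold lower), against -0.01 and -0.08 in tet-control.

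The induction difference subtracts the log2 change of tet-control from that of tet-ZFP36L1, each relative to its own 0 h library. It was -0.39 for TFRC at 6 h (interval -0.46 to -0.32) and -1.14 at 24 h (-1.22 to -1.07). The second value is past the 1.5-fold threshold used for counting (0.585 on the log2 scale), and 4.43% of the 11908 genes had a lower one. Part of the gap between the lines was there without doxycycline: the log2 ratio of tet-ZFP36L1 over tet-control was -0.48 at 0 h, -0.87 at 6 h and -1.63 at 24 h. Less TFRC mRNA in every cell and fewer cells carrying it cannot be told apart in bulk RNA. The 24 h library of tet-ZFP36L1 differs from the other 5, with a TMM factor of 1.115 against 0.941 to 1.006. In the induction difference at 24 h the median of the highest expression quintile, which holds TFRC, was -0.21, against 0.23 in the lowest quintile. With the values of each library taken relative to the median gene of the same quintile, TFRC was at -0.92, still past the threshold.

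Nearly all TFRC estimated counts fell on transcripts that carry the 3' UTR shown above. The transcript TFRC-201 stood at 71.3, 50.7 and 34.5 TPM in tet-ZFP36L1, against 90.3, 76.6 and 94.2 TPM in tet-control. TFRC-202, whose 3' UTR of 2466 bases holds the same 4 pattern matches, stood at 13.6, 11.6 and 3.43 TPM in tet-ZFP36L1, against 22.2, 28.9 and 8.0 TPM in tet-control. Both transcripts declined in tet-ZFP36L1, but TFRC-202 was also lower at 24 h in tet-control. TFRC-204, annotated as subject to nonsense-mediated decay, stayed at or below 0.93 TPM in tet-ZFP36L1, against 10.5, 26.9 and 4.24 TPM in tet-control. These splits are estimates by kallisto with no error attached.

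STEAP3 (ENSG00000115107, chr2:119223831-119265652, plus strand), the ferrireductase of the transferrin endosome, differed through tet-control. It stood at 7.32, 10.3 and 6.27 CPM in tet-ZFP36L1, against 8.79, 26.1 and 30.98 CPM in tet-control, from 137 to 612 counts. The 2 treated tet-control libraries were above the other 4. Its induction difference was -1.06 at 6 h (-1.43 to -0.68) and -1.97 at 24 h (-2.36 to -1.58), made of a change from 0 h of 0.46 and -0.21 in tet-ZFP36L1 against 1.52 and 1.76 in tet-control. At 24 h, 11 of the 11908 genes had a larger change in tet-control than STEAP3.

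The STEAP3 transcripts also changed in their split in both lines, by kallisto estimates with no error attached. STEAP3-201 held 65.7, 94.3 and 51.7% of the gene's TPM in tet-ZFP36L1, against 0.49, 69.3 and 90.8% in tet-control. These shares rest on few counts, with 0.9 estimated counts of STEAP3-201 in tet-control at 0 h. STEAP3-201 stood at 1.80, 3.35 and 1.22 TPM in tet-ZFP36L1, against 0.01, 6.01 and 9.41 TPM in tet-control, while STEAP3-203 was at 0.50, 0.00 and 0.86 TPM, against 2.36, 1.60 and 0.00 TPM in tet-control. An antisense gene, STEAP3-AS1, overlaps STEAP3 and shares words of 31 bases with STEAP3-201, of which 12.61% were shared with another gene. The counting is not stated to use strand, so reads of the pair cannot be told apart, though STEAP3-AS1 was assigned at most 9 counts. The 24 genes that share words with STEAP3-201 had together at most 87474 counts in a library, so STEAP3 values are uncertain to the extent that reads fall on those words.

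SLC11A2 (ENSG00000110911, chr12:50979401-51028566, minus strand), the proton-coupled iron transporter DMT1, stayed within 1.5-fold everywhere. It stood at 82.5, 67.0 and 76.5 CPM in tet-ZFP36L1, against 73.0, 60.9 and 69.1 CPM in tet-control. Both lines were lowest at 6 h, with changes of -0.30 and -0.26, and the induction difference was -0.04 at 6 h (-0.19 to 0.11) and -0.03 at 24 h (-0.17 to 0.11). The gene makes 3' ends with and without the iron-responsive element, so each was summed. Coding transcripts with the element stood at 14.96, 14.2 and 13.6 TPM in tet-ZFP36L1, against 11.98, 10.6 and 11.4 TPM in tet-control. Those without it stood at 7.95, 4.18 and 7.46 TPM in tet-ZFP36L1, against 6.93, 5.52 and 7.01 TPM in tet-control. The dip at 6 h was thus larger, by these estimates, in transcripts without the element in both lines, and more so in tet-ZFP36L1. Their share of the summed TPM went from 34.7% at 0 h to 22.8% at 6 h in tet-ZFP36L1, against 36.7% to 34.1% in tet-control. The sums cover part of the gene, which stood at 37.8 TPM in tet-ZFP36L1 at 0 h. They also include SLC11A2-203, with the element, whose estimate was unstable at 190, 238 and 0 counts in tet-ZFP36L1. SLC11A2-202, also with the element, went from 11.4 TPM at 0 h to 10.3 TPM at 6 h there.

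FTH1 (ENSG00000167996, chr11:61959718-61967660, minus strand), the ferritin subunit with ferroxidase activity, stood at 1484, 1257 and 1132 CPM in tet-ZFP36L1, against 1113, 954.3 and 1246 CPM in tet-control. It was higher in tet-ZFP36L1 at 0 and 6 h and lower at 24 h. Relative to 0 h, tet-ZFP36L1 changed by -0.24 at 6 h and by -0.39 at 24 h, against -0.22 and 0.16 in tet-control. The induction difference was therefore -0.02 at 6 h (-0.06 to 0.02) and -0.55 at 24 h (-0.59 to -0.52), just inside the 1.5-fold threshold. At 24 h it was -0.33 relative to its expression quintile, and -0.65, past the threshold, with protein-coding transcripts alone.

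FTL (ENSG00000087086, chr19:48965301-48966878, plus strand), the light chain that aids mineral formation in the ferritin shell, dipped at 6 h in both lines. It stood at 734.1, 528.3 and 657.2 CPM in tet-ZFP36L1, against 784.5, 460.7 and 836.7 CPM in tet-control. The change at 6 h was -0.47 in tet-ZFP36L1, against -0.77 in tet-control, the second past 1.5-fold. By 24 h FTL was at -0.16 in tet-ZFP36L1, against 0.09 in tet-control. Its induction difference was 0.29 at 6 h (0.24 to 0.35) and -0.25 at 24 h (-0.30 to -0.21), and at 24 h it was -0.03 relative to its quintile.

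Both ferritin genes have many processed pseudogenes. Of the 31-base words of FTH1-202, 75.66% were shared with other genes, and of FTL-201, 33.25%, so their counts could be split. The genes sharing FTH1 words, which include BEST1 on the opposite strand, were together assigned at most 336 counts in a library, and those sharing FTL words at most 22. The ratio of FTH1 to FTL in TPM was 2.15, 2.53 and 1.82 in tet-ZFP36L1, against 1.51, 2.21 and 1.56 in tet-control, highest at 6 h in each line. The ratio of TFRC to FTH1 in TPM, times 100, was 2.95, 2.73 and 1.74 in tet-ZFP36L1, against 5.94, 7.996 and 4.95 in tet-control, so uptake receptor mRNA was lower relative to ferritin mRNA in each tet-ZFP36L1 library than in each tet-control library.

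SLC40A1 (ENSG00000138449, chr2:189560579-189583758, minus strand), the iron exporter, was the iron gene with a positive induction difference past the threshold. It stood at 8.94, 6.48 and 14.3 CPM in tet-ZFP36L1, against 7.10, 2.14 and 4.20 CPM in tet-control, from 40 to 312 counts. It was lowest at 6 h in each line. Relative to 0 h, tet-ZFP36L1 changed by -0.44 at 6 h and by 0.65 at 24 h, against -1.52 and -0.69 in tet-control. The induction difference was 1.09 at 6 h (0.57 to 1.61) and 1.34 at 24 h (0.90 to 1.77). At this level the value depends on the pseudocount: with 5 in place of 0.5 it was 0.48 at 6 h, under the threshold, and 0.86 at 24 h. At 24 h the gene lies in the lowest expression quintile, whose median was 0.23, and relative to it SLC40A1 was at 1.11.

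**Figure D2:**
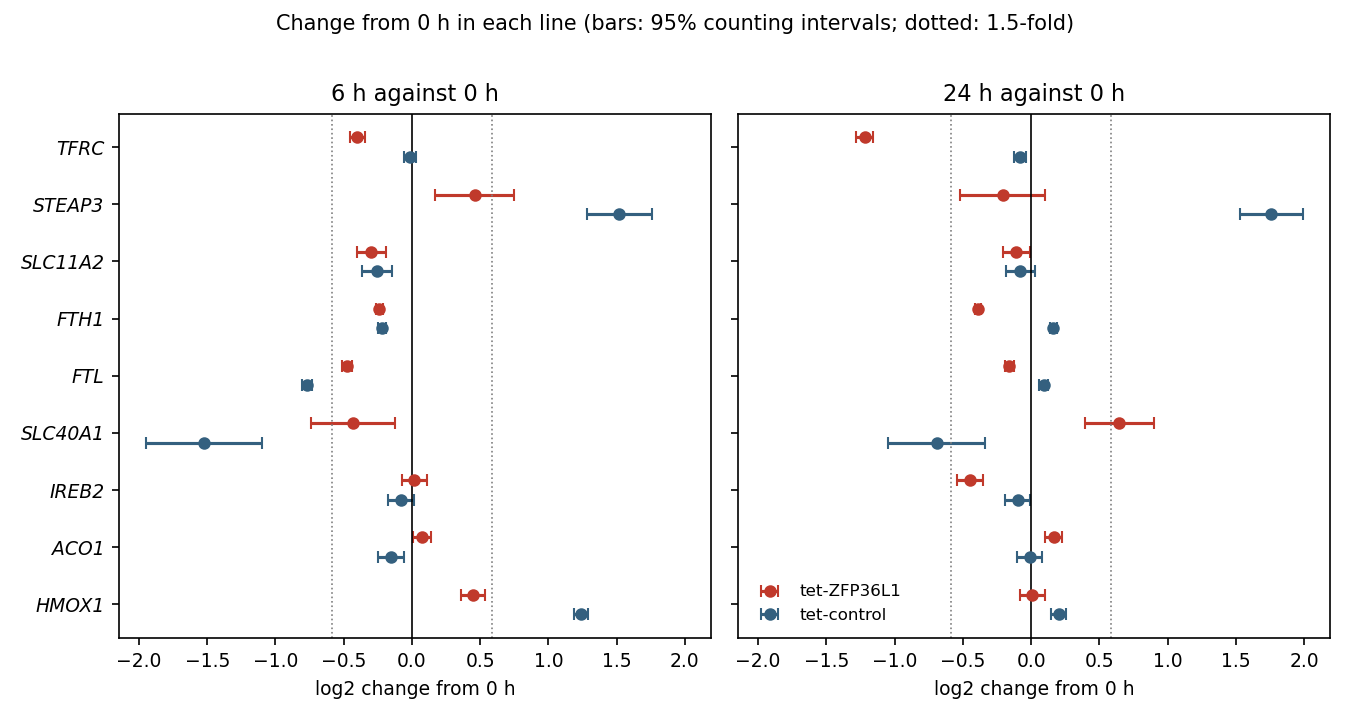
Points are log2 changes from 0 h on the horizontal axis, at 6 h in the left panel and 24 h in the right, with 95% counting intervals and genes down the page, tet-ZFP36L1 above tet-control. At 24 h TFRC is at -1.22 in tet-ZFP36L1 and -0.08 in tet-control, while STEAP3 is at -0.21 in tet-ZFP36L1 and 1.76 in tet-control.

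The genes of the iron regulatory proteins moved little. IREB2 (ENSG00000136381, chr15:78437431-78501456, plus strand), which encodes IRP2, stood at 100.1, 101.4 and 73.3 CPM in tet-ZFP36L1, against 95.2, 90.1 and 88.9 CPM in tet-control. The tet-ZFP36L1 library at 24 h was the lowest of the 6. Its induction difference was 0.10 at 6 h (-0.03 to 0.23) and -0.35 at 24 h (-0.48 to -0.22), within 1.5-fold.

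ACO1 (ENSG00000122729, chr9:32384603-32454769, plus strand), which encodes IRP1, the iron regulatory protein that is a cytosolic aconitase when it holds an iron-sulfur cluster, differed between the lines rather than with time. It stood at 193.6, 203.7 and 217.2 CPM in tet-ZFP36L1, against 91.4, 82.1 and 90.7 CPM in tet-control. Every tet-ZFP36L1 value was above every tet-control value, by 2.11-fold at 0 h, 2.47-fold at 6 h and 2.39-fold at 24 h. At 0 h, 4.46% of the 11908 genes were higher in tet-ZFP36L1 over tet-control than ACO1. The induction difference was 0.23 at 6 h (0.11 to 0.34) and 0.18 at 24 h (0.07 to 0.29). Its split between transcripts was uneven across libraries: ACO1-203 held 51.6, 65.5 and 46.3% of the gene's TPM in tet-ZFP36L1, against 80.6, 23.5 and 49.5% in tet-control. The ratio of ACO1 to IREB2 in TPM was 2.58, 2.89 and 4.07 in tet-ZFP36L1, against 1.42, 1.14 and 1.54 in tet-control.

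HMOX1 (ENSG00000100292, chr22:35380361-35394214, plus strand), the inducible heme oxygenase, which frees iron from heme, stood at 88.8, 121.2 and 89.4 CPM in tet-ZFP36L1, against 247.3, 584.3 and 284.6 CPM in tet-control. Every tet-control value was above every tet-ZFP36L1 value, and 6 h was the peak in each line. The log2 ratio of tet-ZFP36L1 over tet-control was already -1.47 at 0 h, and 1.13% of genes had a lower one. The change at 6 h was 0.45 in tet-ZFP36L1, against 1.24 in tet-control, which gave an induction difference of -0.79 (-0.89 to -0.69). At 24 h the difference was -0.19 (-0.30 to -0.09), and 0.03 relative to its expression quintile.

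**Figure D3:**
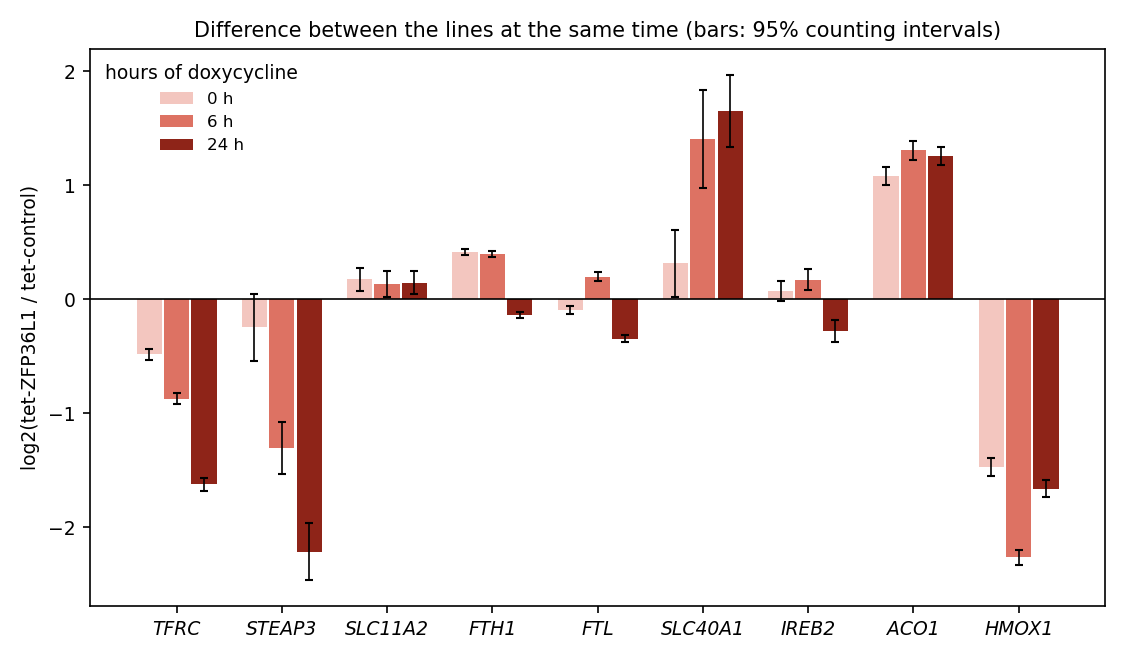
Bars are log2 ratios of tet-ZFP36L1 over tet-control at the same time, from 0 on the vertical axis, with iron genes along the horizontal axis, shades for 0, 6 and 24 h, and 95% counting intervals. ACO1 is above 1 and HMOX1 below -1 at each time, TFRC and STEAP3 move further below 0 with time, and SLC40A1 moves further above it.

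Counted by the induction difference, 2 of the 9 measured iron genes were lower by at least 1.5-fold at 6 h (HMOX1 and STEAP3), where 14.3% of all 11908 genes were. SLC40A1, 1 of 9, was higher, where 7.0% of all genes were. At 24 h, 2 of 9 were lower (TFRC and STEAP3), where 17.4% of all genes were, and again SLC40A1 was higher, where 13.9% were. These counts are near the background and are no result about the iron genes as a group. The median induction difference of the 9 was -0.02 at 6 h, against -0.01 over all genes, and -0.25 at 24 h, against -0.02 over all genes. Relative to the median gene of the same expression quintile, the median of the 9 at 24 h was -0.03, against 0.02 over all genes. With plain CPM the median of the 9 at 24 h was -0.08, and that of all genes moves to 0.15. The shares of all genes lower and higher then become 12.1% and 20.7%, while the iron genes lower and higher at 24 h stay at 2 and 1.

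**Figure D4:**
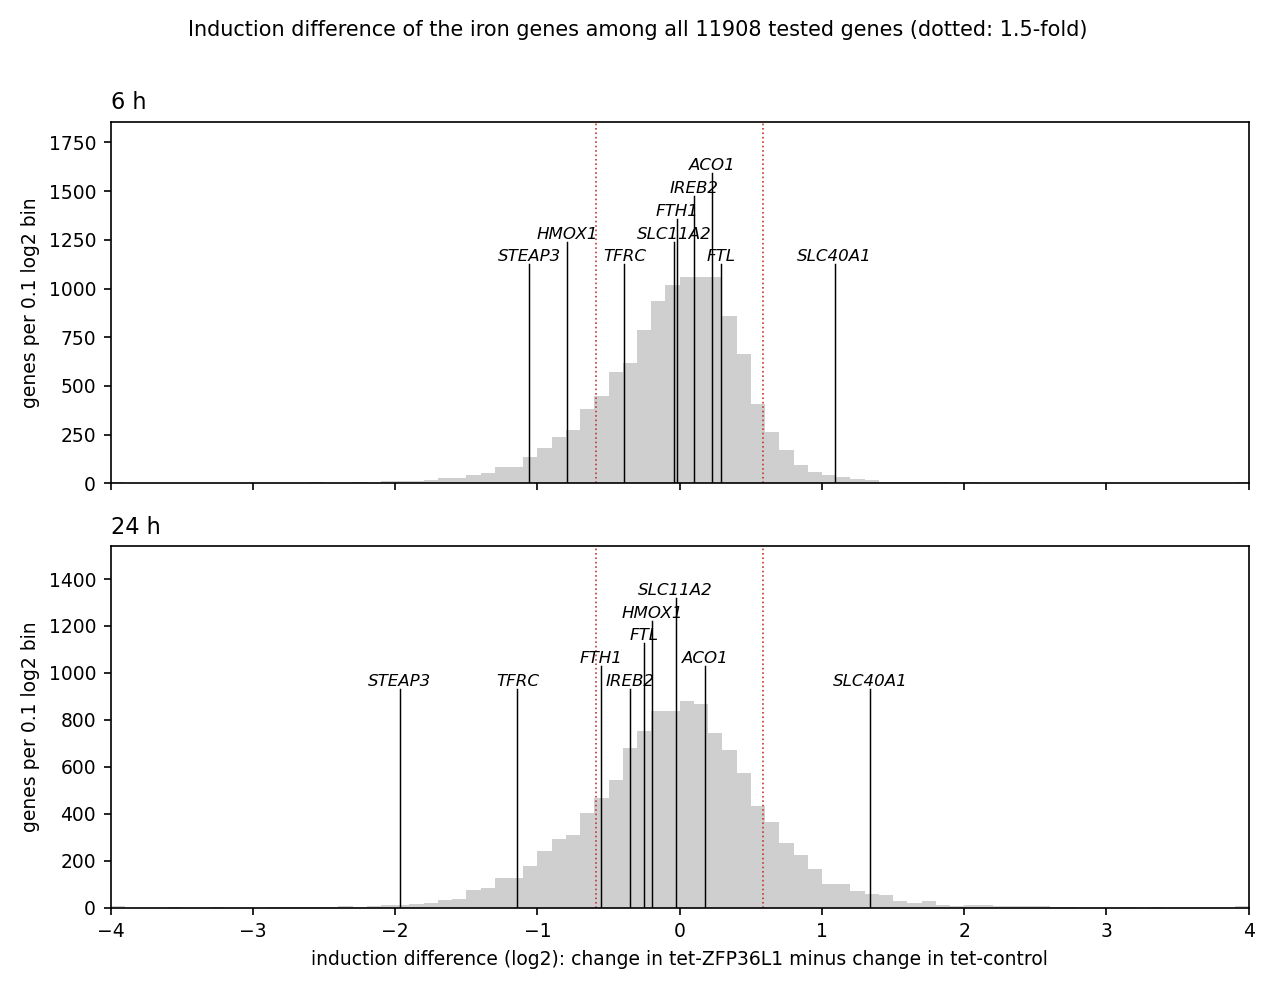
Grey bars count genes per 0.1 log2 of induction difference (horizontal axis) over the 11908 genes, at 6 h above and 24 h below, with lines for the iron genes and dotted lines at 1.5-fold. STEAP3 and SLC40A1 lie in the tails at both times, TFRC moves from -0.39 at 6 h to -1.14 at 24 h, and the others lie inside the dotted lines at 24 h.

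The source of these calls differs by gene. In its own change from 0 h, tet-ZFP36L1 had 0 of 9 iron genes past 1.5-fold at 6 h, where 15.6% of all genes were lower and 9.09% higher. In tet-control at 6 h, FTL and SLC40A1 were lower, where 7.72% of genes were, and HMOX1 and STEAP3 higher, where 7.47% were. At 24 h TFRC was lower in tet-ZFP36L1, where 17% of genes were, and SLC40A1 was higher, where 11.8% were. In tet-control at 24 h SLC40A1 was lower, where 1.92% of genes were, and STEAP3 higher, where 1.60% were. Without doxycycline, HMOX1 was lower in tet-ZFP36L1 than in tet-control, where 7.98% of genes were, and ACO1 higher, where 10% were. At 6 h HMOX1, STEAP3 and TFRC were lower (15.3% of genes) and SLC40A1 and ACO1 higher (12.4%), and at 24 h the same 3 were lower (20.3%) and the same 2 higher (18.4%). The comparisons of the 2 times share the 0 h libraries.

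The other genes of iron handling were followed as 8 lists, with 72 of 90 listed genes measured. By induction difference, 9 of the 72 were lower at 6 h and 1 higher, where 14.3% and 7.0% of all genes were, and the median was -0.05, against -0.01 over all genes. At 24 h the calls were 14 lower and 5 higher, where 17.4% and 13.9% of all genes were, and the median was -0.10, against -0.02 over all genes. The lower calls are near these background shares, which hold for each list that follows, and no count of so few genes is read as a trait of its list. Among 6 measured genes of the transferrin cycle and other uptake, the calls at 6 h were 2 lower and 1 higher (14.3% and 7.0% of all genes), and at 24 h 1 lower and 1 higher (17.4% and 13.9%). Their medians were -0.16 and 0.06. STEAP1, a relative of STEAP3, stood at 6.14, 6.95 and 9.29 CPM in tet-ZFP36L1, against 4.62, 1.93 and 2.63 CPM in tet-control, with differences of 1.24 and 1.27, the opposite sign to STEAP3. STEAP2 was at -0.71 and -0.49. SLC39A14, a transporter of iron not bound to transferrin, was at -0.68 and -0.66, with 172.1, 122.3 and 85.4 CPM in tet-ZFP36L1, against 159.4, 181.7 and 125.6 CPM in tet-control.

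Among 5 measured genes of iron chaperones and ferritin turnover, 0 were called at 6 h (14.3% of all genes were lower and 7.0% higher) and 1 was lower at 24 h (17.4% of all genes), with medians of -0.05 and -0.07. The lower gene was PCBP1, which hands iron to ferritin, at 315.2, 300.6 and 195.8 CPM in tet-ZFP36L1, against 321.8, 317.5 and 340.2 CPM in tet-control, a difference of -0.77 at 24 h. Its relative PCBP2 was at -0.42. Of 4 measured genes of iron sensing and the hepcidin axis, BMP6, a growth factor that induces hepcidin, was lower at 6 h (-0.78), where 14.3% of all genes were, and 0 were called at 24 h, where 17.4% of all genes were lower and 13.9% higher. The medians were -0.41 and -0.30. FBXL5, the ubiquitin ligase subunit that marks IRP2 for degradation, was at 0.31 and 0.19. HFE, which interacts with the transferrin receptor, was at -0.31 and -0.58, with changes at 6 h of -1.31 in tet-ZFP36L1, against -0.996 in tet-control.

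Of 14 measured heme genes, 1 was lower at 6 h, where 14.3% of all genes were. At 24 h the calls were 1 lower and 4 higher, where 17.4% of all genes were lower and 13.9% higher, up from 7.0% higher at 6 h. The medians were 0.10 and 0.20. ALAS1, the first enzyme of heme synthesis, was the lower gene at 24 h, with a difference of -0.64. SLC48A1, a heme transporter, was at 0.99 at 24 h, with 21.4, 17.6 and 48.6 CPM in tet-ZFP36L1, against 44.5, 33.6 and 50.3 CPM in tet-control. BLVRB, a biliverdin reductase, was at 0.89.

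Of 22 measured genes of mitochondrial iron import and iron-sulfur assembly, 1 was lower at 6 h, under the 14.3% of all genes, and 4 were lower at 24 h, near the 17.4% of all genes. At both times 0 were higher, where 7.0% and 13.9% of all genes were. CIAO2B, of the cytosolic iron-sulfur assembly machinery, was at -1.04 at 24 h, with 65.7, 39.6 and 31.3 CPM in tet-ZFP36L1, against 75.3, 66.8 and 74.6 CPM in tet-control. CISD2, an iron-sulfur protein of the endoplasmic reticulum and mitochondrial outer membrane, was at -0.95, and NFU1, an iron-sulfur scaffold, at -0.79. The median of the list at 24 h was -0.10, against -0.02 over all genes.

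Other mRNAs reported to carry an iron-responsive element had 4 measured genes, of which 1 was lower at 6 h and 3 were lower at 24 h, where 14.3% and 17.4% of all genes were. With 4 genes this is a description of those genes, with medians of -0.48 and -1.09. EPAS1, which encodes HIF-2α, stood at 127.7, 71.8 and 45.3 CPM in tet-ZFP36L1, against 10.9, 18.7 and 14.7 CPM in tet-control. It was 3.49 higher in tet-ZFP36L1 at 0 h on the log2 scale, and its induction difference was -1.58 and -1.91. CDC14A, a phosphatase, was at -0.40 and -1.24.

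Of 8 genes listed under transcription factors known to act on iron genes, 2 were lower at each time, EPAS1 and HIF1A. Of all genes, 14.3% were lower at 6 h and 17.4% at 24 h. The list counts in KEAP1, which is not itself a transcription factor. The medians were -0.41 and -0.10. HIF1A, which encodes the oxygen-regulated HIF-1α, was at -0.83 and -1.21. NFE2L2, which encodes NRF2, an activator of HMOX1 and ferritin genes, was at -0.47 at both times. It stood at 158.4, 121.1 and 108.4 CPM in tet-ZFP36L1, against 122.9, 130.4 and 116.8 CPM in tet-control. NFE2L2 was thus higher in tet-ZFP36L1 at 0 h and lower at 6 and 24 h. BACH1, a repressor of HMOX1 and ferritin genes, was at -0.12 and 0.07, but stood at 57.2, 59.0 and 57.4 CPM in tet-ZFP36L1, against 24.97, 28.1 and 23.9 CPM in tet-control. BACH1 was thus higher and HMOX1 lower in tet-ZFP36L1 at each time, and a link between them was not tested.

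Of 10 genes of ferroptosis and lipid peroxide defence, 2 were lower at 6 h and 3 at 24 h, near the 14.3% and 17.4% of all genes, with medians of -0.06 and -0.30. GCLM, of glutathione synthesis, was at -0.99 and -1.21, with 53.9, 36.3 and 23.3 CPM in tet-ZFP36L1, against 72.4, 97.7 and 73.4 CPM in tet-control. SLC7A11, the cystine transporter, was at -0.52 and -1.04, and PTGS2, a cyclooxygenase, at -1.01 and -0.72. At 6 h SLC7A11 was higher than at 0 h in both lines, with changes of 0.81 in tet-ZFP36L1, against 1.33 in tet-control.

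ZFP36L1 itself stood at 220.2, 3127 and 3133 CPM in tet-ZFP36L1, against 233.8, 223.3 and 206.0 CPM in tet-control. Its relatives ZFP36L2 and ZFP36 had induction differences of -2.62 and -2.04, and of -0.40 and -1.04. Of 12 bladder urothelial and epithelial markers, KRT7, KRT8, KRT18 and EPCAM were past the minimum, 0 of these 4 were called, and UPK2 and UPK3A, which mark the differentiated urothelium, were at 0 in every library. VIM and CDH2, mesenchymal markers known in J82, were present at 722.4 to 1488 CPM and 74.9 to 250.9 CPM. By induction difference 1 of them, VIM, was lower at 24 h, where 17.4% of all genes were. Of the 6 markers of blood, endothelial and liver cells, PTPRC, CD3E, ALB and HBB stayed at or below 0.25 CPM. PECAM1 had no matched transcript. CD68 stood at 10.8, 15.03 and 28.2 CPM in tet-ZFP36L1, against 1.04, 6.85 and 4.76 CPM in tet-control. CD68 was called lower at 6 h, with an induction difference of -1.79, where 14.3% of all genes were lower.

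The genes whose profile over the 6 libraries was most like that of TFRC, by the root mean square difference of centred log2 values among 5454 genes with at least 0.5 times its range, were LARP1B (0.08), PRMT1 (0.09), HIGD1A (0.09), NOMO1 (0.09) and ZNF100 (0.10). NOMO1 has near-identical copies, so its counts are uncertain. Nearest to FTH1 among 11255 genes were FMR1 (0.05), ALDH9A1, AHNAK2, NRM and RDH11 (0.07). These are descriptions over 6 libraries of 2 lines.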

How the data were processed

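The BGISEQ-500 was used on total RNA of 6 J82 cultures, per the labels' protocols, and titles gave the groups. Kallisto, DESeq2 and hg19 are named, without versions, in the submitters' processing notes. The deposited tables give estimated counts, which need not be whole, and TPM, scaled for length and depth, for 196354 transcripts. No source used here says whether strand was used. Identifiers of 181854 transcripts were found in GENCODE 29 (GRCh38), and no coordinate was converted. The rest, with 5.12% to 5.47% of the counts, were left out.

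Counts were added up within each gene and rounded (19604891 to 20244775 per library, from deposited totals of 20739025 to 21380480). TMM factors (edgeR 4.0.16, R 4.3.3) used genes averaging 10 counts or more. The unit of analysis was log2(CPM + 0.5), which shrinks changes of low genes, in genes averaging 50 counts or more. No count model was fitted, since each group is 1 library. A gene was called at 1.5-fold. Intervals come from the counts (exact Poisson for CPM, delta method for differences) and treat reads as independent molecules. The calling step was tested on simulated data. Python 3.11.15, numpy 2.4.6, pandas 2.3.3, scipy 1.17.1 and matplotlib 3.10.9 were used.

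The members and the lists were chosen with earlier results of these data known. From each list the text names at most the 3 genes with the largest mean difference, among those called at either time and of like sign at both, plus HIF1A, NFE2L2, BACH1, HFE, FBXL5, PCBP1, PCBP2 and the ZFP36 genes whatever their values. The values of 1 gene that this rule names are not reported here. Marker levels outside this rule were named after they were seen. The alternatives were DESeq2 1.42.0 size factors, plain CPM, deposited TPM, other minimums, pseudocounts, thresholds and contrasts, protein-coding transcripts alone, ferritin pseudogenes added, and 1 chosen later.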

Additional observations from a re-analysis of the deposited data

Results flagged for a closer look

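The 4 differences here were picked out because the lines changed in opposite directions from 0 h, each outside its counting interval. With 1 library per group, none of these differences between the lines was tested.

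FTH1 at 24 h changed by -0.39 on the log2 scale in tet-ZFP36L1, against 0.16 in tet-control, a difference of -0.55. FTL at 24 h changed by -0.16 in tet-ZFP36L1, against 0.09 in tet-control, a difference of -0.25. SLC40A1 at 24 h changed by 0.65 in tet-ZFP36L1, against -0.69 in tet-control, a difference of 1.34. ACO1 at 6 h changed by 0.07 in tet-ZFP36L1, against -0.15 in tet-control, a difference of 0.23.

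The first 3 involve the tet-ZFP36L1 library at 24 h, in which highly expressed genes lean lower and weakly expressed genes lean higher. The part of that lean in the 3 differences was measured in 1 way: relative to genes in the same expression quintile they were -0.33 for FTH1, -0.03 for FTL and 1.11 for SLC40A1.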

How the results depend on the processing

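No paired analysis was possible because the labels give no replicate numbers, and with 1 library in each group the difference between the lines in their change over time has no residual degrees of freedom. Pairing the lines by time would leave some for their average difference, which the counts do not concern, and was not run. No replicate could be left out. Without the tet-ZFP36L1 library at 24 h there is no comparison at 24 h, and the values at 6 h do not use it except in scaling and in the count minimum. The counts of iron genes at 6 h were 2 lower and 1 higher, and those at 24 h were 2 lower and 1 higher. With a pseudocount of 5, 0 were higher at 6 h (3.19% of all genes). With a threshold of 2-fold, 1 was lower at 6 h (4.69% of all genes). When the change in tet-ZFP36L1 itself also had to pass 1.5-fold, 0 were lower (8.85%) and 0 higher (3.04%) at 6 h, and 1 was lower at 24 h (TFRC; 14.3%). Taking tet-ZFP36L1 over tet-control at the same time gave 2 higher at 6 h (12.4%) and 2 higher at 24 h (18.4%), SLC40A1 and ACO1 each time. ACO1 was already 2.11-fold higher in tet-ZFP36L1 than in tet-control at 0 h, and SLC40A1 rested on 40 to 312 estimated counts per library. Why the counts of iron genes moved was not tested. The other counts stayed within 1.5 times. Over 10 alternatives of the same contrast the TFRC difference at 24 h ranged from -1.15 to -0.91. STEAP3 ranged from -2.06 to -1.51 and SLC40A1 from 0.86 to 2.44, the upper end with the deposited TPM. That upper end is uncertain. In tet-control the transcript SLC40A1-205, with 1.5 estimated counts at 0 h, made up 48.68% of the gene's TPM at 0 h and 0% at 24 h. Signs of values near 0 varied, for SLC11A2 at both times, FTH1 and IREB2 at 6 h and HMOX1 at 24 h. The deposited TPM moved the median of all genes at 24 h to 0.10, with 13.4% lower and 18.9% higher. The alternative relative to expression quintiles was chosen after seeing the data.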
